A study of Mus musculus with 6 samples.

Results

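The FoxO transcription factors and 7 genes known as their targets in wasting muscle were followed in gastrocnemius of mice without and with an excess of the transcription factor IRF4. The 10 genes were taken by symbol from the table of gene counts, which holds 24054 genes, and all 10 passed the filter on low counts that left 12660 genes for testing. They are the factors Foxo1, Foxo3 and Foxo4, the ubiquitin ligase genes Fbxo32, Trim63, Fbxo30 and Fbxo21, and the autophagy and lysosome genes Ctsl, Bnip3 and Gabarapl1.

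RNA-seq was performed on 6 libraries of male C57BL/6 mice, with 3 from muscle-specific IRF4 knockout (MI4KO) mice and 3 from muscle-specific IRF4 overexpression (MI4OE) mice. MI4KO mice carried floxed Irf4 alleles, and MI4OE mice carried an Irf4 transgene behind a stop cassette at the Rosa26 locus. Both lines carried Myl1-cre, which is active in skeletal muscle fibres and leaves the other cells of the tissue untouched. The labels give a high fat diet for each library, whereas the study describes these mice on chow, so the diet is uncertain. Age and feeding state at collection were not given in the sources used here. No unmodified gastrocnemius was analysed here, so each difference sets an overexpressor against a knockout. The titles give each library its own number. The paper lists 3 gastrocnemius samples from mice of each line but does not say outright that each came from a separate animal. If they did not, p-values measure only technical spread between libraries. Summed expected counts ran from 18828605 to 29239585 per library. Between 0 and 6 counts of Irf4 were found per MI4KO library and between 2864 and 10557 per MI4OE library, which fits the genotype labels. Markers of skeletal muscle such as Ckm and Acta1 were abundant in every library.

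FoxO proteins are forkhead transcription factors that the insulin and growth factor kinase AKT phosphorylates, which holds them in the cytoplasm. When that signal falls, as in fasting, they enter the nucleus and switch on genes for protein breakdown. In muscle the best known of these encode Atrogin-1 (Fbxo32) and MuRF1 (Trim63), ligases that mark muscle proteins for the proteasome, and proteins of the autophagosome and lysosome. Glucocorticoids, the hormones of stress and fasting, act on the same programme.

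The promoter of Trim63 is shown because it holds letters recognised by both FoxO factors and the glucocorticoid receptor, and that of Foxo1 because Foxo1 and Trim63 had similar profiles over the libraries. Both are RefSeq sequences of build GRCm38.p6, plus strand, from 250 bases before to 50 bases after the start site. Capitals mark matches to the motifs searched on both strands, which were TGTTTAC (FoxO), TGTTCT (one arm of the glucocorticoid receptor element), the interferon-stimulated response element and the ETS-IRF composite element.
Trim63, chr4:134314870-134315169: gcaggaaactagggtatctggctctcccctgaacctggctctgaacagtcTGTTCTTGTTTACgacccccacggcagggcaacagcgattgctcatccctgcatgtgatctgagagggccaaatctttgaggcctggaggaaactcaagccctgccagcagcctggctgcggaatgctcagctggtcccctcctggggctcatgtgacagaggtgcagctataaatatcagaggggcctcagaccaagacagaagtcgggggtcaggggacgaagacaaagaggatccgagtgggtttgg
Foxo1, chr3:52268087-52268386: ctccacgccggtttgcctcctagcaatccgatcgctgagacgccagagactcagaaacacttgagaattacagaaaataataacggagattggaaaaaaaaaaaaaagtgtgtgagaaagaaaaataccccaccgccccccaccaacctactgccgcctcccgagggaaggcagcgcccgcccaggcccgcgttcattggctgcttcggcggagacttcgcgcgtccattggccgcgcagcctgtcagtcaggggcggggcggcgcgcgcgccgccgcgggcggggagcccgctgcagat

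In the Trim63 sequence the glucocorticoid receptor hexamer began 200 bases before the start site and ran directly, without overlap, into the FoxO heptamer, which began 194 bases before it. The FoxO motif was present in 3.66% of 32544 promoters of the same length and the glucocorticoid receptor hexamer in 18.9%. The interferon-stimulated element was present in 3.45% and the composite element in 2.73%. Sequences were found for 8 of the 10 genes, all but Foxo4 and Fbxo32. Apart from Trim63, the other 7 promoters held none of the 4 motifs within this window. The windows of Ctsl and Fbxo30 are set on start sites inside the annotated genes, so both lie within the gene and not upstream of it. A match of letters is a description and not a binding site. The motifs were chosen after the expression values and these sequences had been seen.

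None of the 10 genes passed an adjusted p of 0.05 between MI4OE and MI4KO by edgeR's quasi-likelihood test, where 0.0237% of all genes tested did so. The same count of 0 was given by DESeq2, edgeR's exact test and limma. Only Trim63 had an unadjusted p under 0.05, and it was lower in MI4OE. That is 1 of the 10 genes, against 7.58% of all genes in either direction and 2.68% lower in MI4OE. With the further demand of a 1.5-fold difference, which together form the criterion the study used, Trim63 again was the 1 gene called, against 6.64% of all genes and 2.28% lower in MI4OE. The median log2 fold change was -0.12 over the 10 genes and -4.3e-05 over all genes tested, and 6 of the 10 were lower in MI4OE, as were 50% of all genes. In none of the 10 did the groups separate without overlap, which happened in 12.9% of all genes. The highest library was 2-fold or more over the lowest in 4 of the 10, Foxo1, Foxo3, Trim63 and Fbxo32, against 43% of all genes.

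The clearest feature of these genes lay within the knockout group. In the library of MI4KO replicate 1, Foxo1, Trim63 and Fbxo32 stood above the other 5 libraries together, while most other members did not follow. Levels below are counts divided by the TMM-scaled library size (CPM), unless they are said to be TPM.

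**Figure D1:**
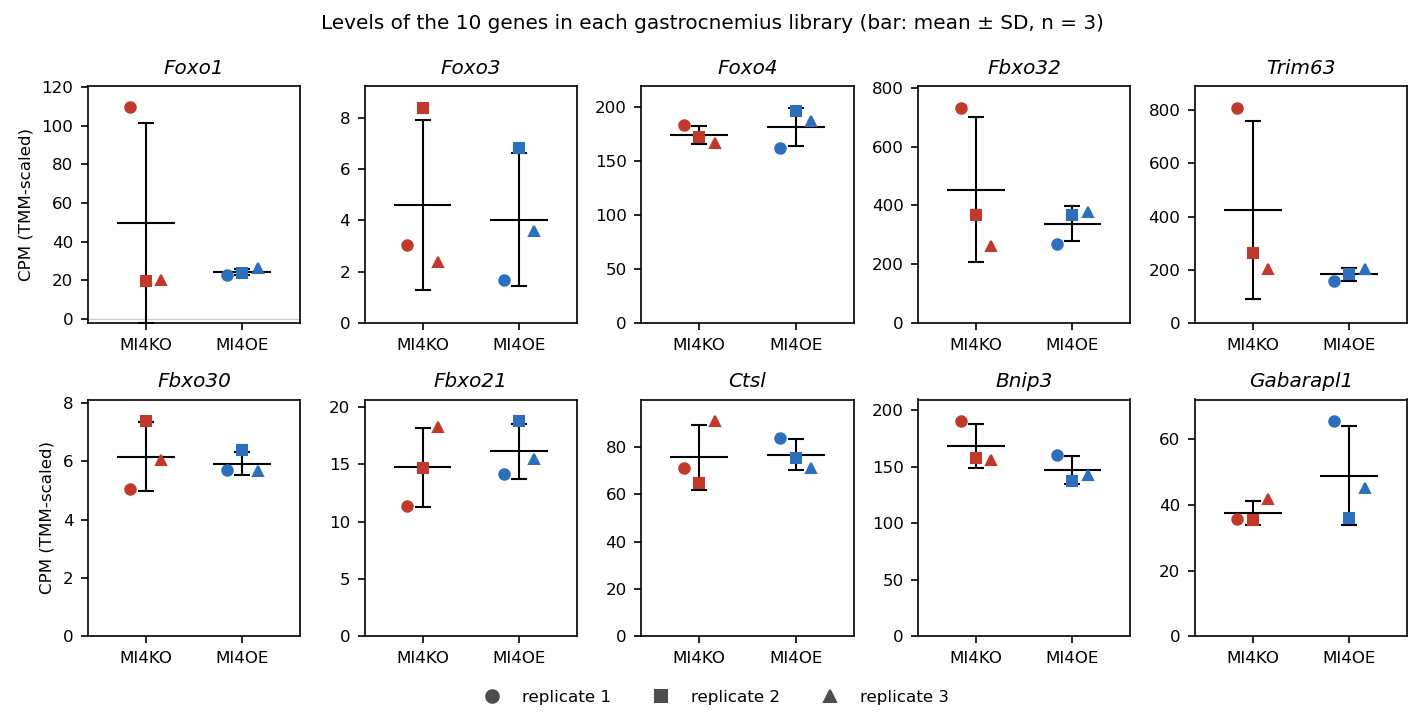
CPM of each of the 10 genes (vertical axes, own linear scale for each gene) in the 3 MI4KO libraries (red) and the 3 MI4OE libraries (blue), with the mean and SD of each group as bars and the replicate given by the marker shape. The circle of MI4KO replicate 1 sits far above the rest for Foxo1 (110), Trim63 (810) and Fbxo32 (733), whereas Foxo4 lies between 162 and 197 in all 6 libraries.

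Among the factors, Foxo1 is the member most often linked to fasting and glucocorticoid responses in muscle. Its level was 110, 19.7 and 20.1 CPM in MI4KO replicates 1, 2 and 3, and 22.9, 23.8 and 26.1 CPM in the MI4OE replicates. The first of these was 4.20-fold above the next highest library, and the other MI4KO libraries were the lowest of the 6. MI4KO averaged 49.9 ± 51.9 CPM (SD, n = 3), and MI4OE averaged 24.3 ± 1.68 CPM (SD, n = 3). Foxo1 had a log2 fold change of -1.04 (standard error 0.64), and its adjusted p was 0.781. With limma on log2(TPM + 1) the value was -0.45. The log2 fold change was 0.28 without MI4KO replicate 1, so its direction was set by that library.

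Foxo4 was by far the most abundant of the 3 factors and the steadiest. MI4KO libraries held 184, 172 and 167 CPM of it, against 162, 197 and 187 CPM for MI4OE. The groups overlapped, and MI4KO replicate 1 stood within the range of the others. Its log2 fold change was 0.062, with a 95% interval from -0.32 to 0.44 and an adjusted p of 0.958.

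Foxo3, the factor that drives both ubiquitin ligases and autophagy genes, was scarce and followed another order. The MI4KO libraries had 74, 212 and 71 counts, which are 3.03, 8.40 and 2.38 CPM. In the MI4OE libraries there were 34, 195 and 81 counts, or 1.67, 6.82 and 3.58 CPM. Replicate 2 was thus the highest library in each genotype, MI4OE replicate 1 was the lowest of all, and MI4KO replicate 1 was not raised. For Foxo3 the log2 fold change was -0.18, the interval ran from -1.60 to 1.24, and the adjusted p was 0.968. The sign changed when MI4KO replicate 2 was left out, to 0.57, and when MI4OE replicate 1 was left out, to 0.18.

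On the scale of TPM, which adjusts for transcript length and so allows genes to be compared, Foxo4 took from 89.5% to 92.3% of the summed TPM of the 3 factors in 5 libraries and 73.9% in MI4KO replicate 1. Foxo1 took from 5.72% to 7.25% in those 5 libraries and 24.7% in MI4KO replicate 1. The share of Foxo3 ran from 1.04% to 4.79%. The summed TPM of the 3 factors was 106.5 in MI4KO replicate 1, against 84.9 to 123 elsewhere. In TMM-scaled CPM, which is not adjusted for length, the sum was 297 in that library, against 187 to 227 elsewhere. The place of MI4KO replicate 1 in summed FoxO mRNA thus depended on the scaling, being highest in CPM and not in TPM.

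Among the ubiquitin ligases, Trim63 encodes MuRF1, which acts on myosin and other thick filament proteins. Its level was 810, 263 and 203 CPM in MI4KO replicates 1, 2 and 3. In MI4OE it was 158, 185 and 204 CPM. The highest of them was 3.09-fold above the next library, and MI4KO replicate 3 and MI4OE replicate 3 were nearly the same, so the groups met at a single pair of libraries. MI4KO averaged 425 ± 334 CPM (SD, n = 3), against 182 ± 22.8 CPM (SD, n = 3) for MI4OE. Trim63 was thus 2.33-fold lower in MI4OE, a log2 fold change of -1.22 (standard error 0.50). The unadjusted edgeR p was 0.0413 and the adjusted p 0.626. Leaving out MI4KO replicate 1 gave a log2 fold change of -0.36 in the same direction, with an unadjusted edgeR p of 0.151. Trim63 was lower in MI4OE under each of the 15 alternative settings.

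Fbxo32 encodes Atrogin-1, the substrate-binding part of a ubiquitin ligase complex. MI4KO libraries held 733, 366 and 262 CPM, against 269, 367 and 377 CPM for MI4OE. The first MI4KO library was 1.94-fold above the next highest library, and the other 5 libraries were mixed between the genotypes. Its log2 fold change of -0.43 (standard error 0.38) had an adjusted p of 0.851. The value was -0.24 when limma was run on log2(TPM + 1), and 0.095 without MI4KO replicate 1. The ratio of Trim63 to Fbxo32 in TPM was 4.27, 2.77 and 2.99 in the MI4KO libraries and 2.28, 1.95 and 2.09 in the MI4OE libraries. No MI4OE library reached the ratio of any MI4KO library. An exact permutation test of 3 against 3 libraries cannot give a two-sided p below 0.1, and this ratio was looked at after the values were seen, so it was not tested.

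The other ligases are F-box proteins that bind substrates for ubiquitin ligase complexes, and neither joined this pattern. Fbxo30, also called MUSA1, held 5.04, 7.37 and 6.05 CPM in MI4KO, against 5.71, 6.36 and 5.65 CPM for MI4OE. Fbxo21, also called SMART, held 11.3, 14.7 and 18.2 CPM in MI4KO, against 14.2, 18.8 and 15.5 CPM for MI4OE. Each of them was at its lowest in MI4KO replicate 1, the library in which Trim63 and Fbxo32 were highest. For Fbxo30 the log2 fold change was -0.057, with an interval from -0.53 to 0.41 and an adjusted p of 0.968. That of Fbxo21 was 0.13, with an interval from -0.37 to 0.63 and an adjusted p of 0.919.

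Fbxo30 was the 1 gene of the 10 with more than 1 transcript in the table. RSEM gave 100%, 15.5% and 0% of it to the transcript of 4943 bases in MI4KO replicates 1, 2 and 3, and 0.02%, 8.84% and 0% in the MI4OE libraries. The rest was given to the transcript of 4977 bases. With 116 to 186 counts of the gene per library and transcripts that differ by so few bases, this division is an estimate from few reads, and it was not tested.

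The autophagy and lysosome genes differed between the highest and the lowest library by 1.39-fold to 1.84-fold. Ctsl, which encodes the lysosomal protease cathepsin L, held 70.9, 64.8 and 90.9 CPM in MI4KO, against 83.8, 75.2 and 71.1 CPM for MI4OE. For Ctsl the log2 fold change was 0.021, with an interval from -0.40 to 0.44 and an adjusted p of 0.991. Bnip3, which encodes a receptor for the removal of mitochondria by autophagy, held 190, 157 and 156 CPM in MI4KO, against 161, 137 and 143 CPM for MI4OE. The highest was again MI4KO replicate 1, but by 1.19-fold. For Bnip3 the value was -0.19 on the log2 scale, with an interval from -0.59 to 0.20 and an adjusted p of 0.851.

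Gabarapl1, whose product is attached to the autophagosome membrane, was the member with the largest positive log2 fold change. MI4KO libraries held 35.6, 35.5 and 41.8 CPM, against 65.5, 36.1 and 45.1 CPM for MI4OE. The highest library was MI4OE replicate 1, and MI4OE replicate 2 lay within the MI4KO range. Its log2 fold change of 0.38 (standard error 0.23) had an adjusted p of 0.780. It was 0.11 without MI4OE replicate 1, but 0.55 without MI4OE replicate 2, with an unadjusted edgeR p of 0.0385 and an adjusted p of 0.446. MI4OE replicate 1 also stood apart in markers of slow fibres, endothelium and erythrocytes. The summed level of 10 slow-fibre markers was 41.5, 144 and 120 CPM over the MI4KO libraries, against 7387, 55.3 and 712 CPM for MI4OE. All 10 had a fold change above 1 in MI4OE, but by this sum only MI4OE replicates 1 and 3 lay above the MI4KO libraries, and replicate 2 lay below MI4KO replicates 2 and 3. For 5 endothelial markers, also all higher in MI4OE, the sum was 290 CPM there, against 75.7 to 171 CPM. The sum of 4 erythrocyte markers was 734 CPM there, against 184 to 302 CPM elsewhere. Fibroblast markers differed by group, with all 6 higher in MI4OE and a sum of 358 to 484 CPM, against 204 to 309 CPM for MI4KO. Their part in the level of Gabarapl1 was not tested. In bulk muscle, fewer cells of a type and less RNA per cell cannot be told apart.

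**Figure D2:**
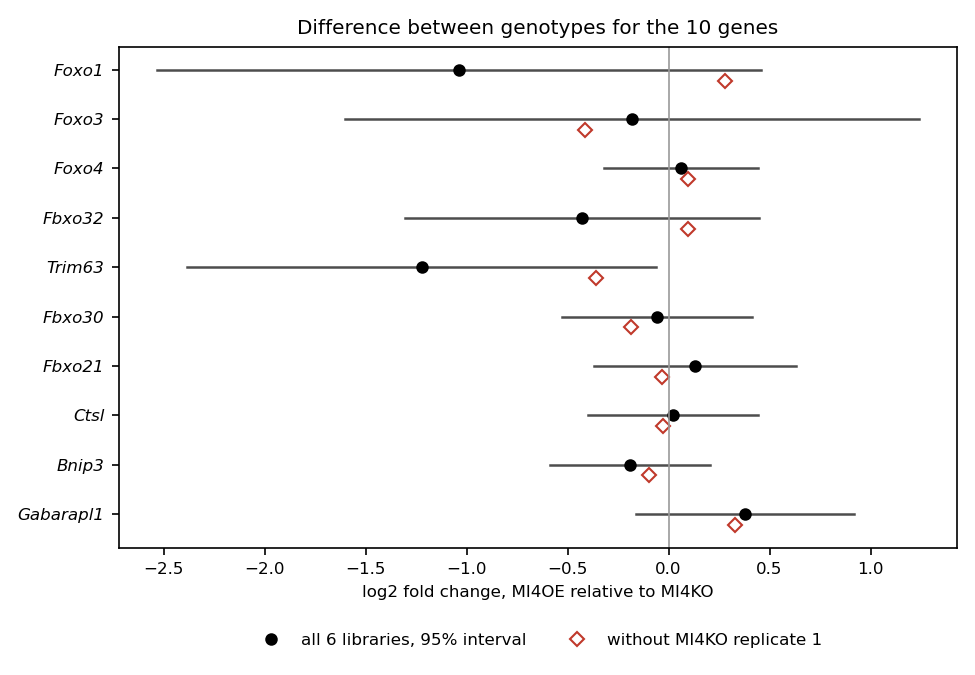
Log2 fold change of MI4OE relative to MI4KO for the 10 genes (horizontal axis), with the 95% interval from the edgeR quasi-likelihood fit of 6 libraries (filled circles and lines) and the value without MI4KO replicate 1 (open diamonds). Only the interval of Trim63, from -2.38 to -0.06, leaves out 0, and the open diamonds of Foxo1 (0.28), Fbxo32 (0.095), Fbxo21 (-0.032) and Ctsl (-0.027) lie on the other side of 0 from their circles.

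Ordered by mean TPM over the 6 libraries, Trim63 came first at 258, followed by Bnip3 at 151, Foxo4 at 93.0, Fbxo32 at 89.9, Ctsl at 64.9 and Gabarapl1 at 41.2. Foxo1 followed at 10.1, Fbxo21 at 6.53, Foxo3 at 2.59 and Fbxo30 at 1.99. The ranges over libraries of neighbouring genes in this order overlapped except between Bnip3 and Foxo4 and between Gabarapl1 and Foxo1. Foxo1 was above Fbxo21 in 3 of 6 libraries, so those levels have no clear order. Trim63 ran from 131 to 598 TPM, whereas Bnip3 ran from 144 to 174 TPM.

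**Figure D3:**
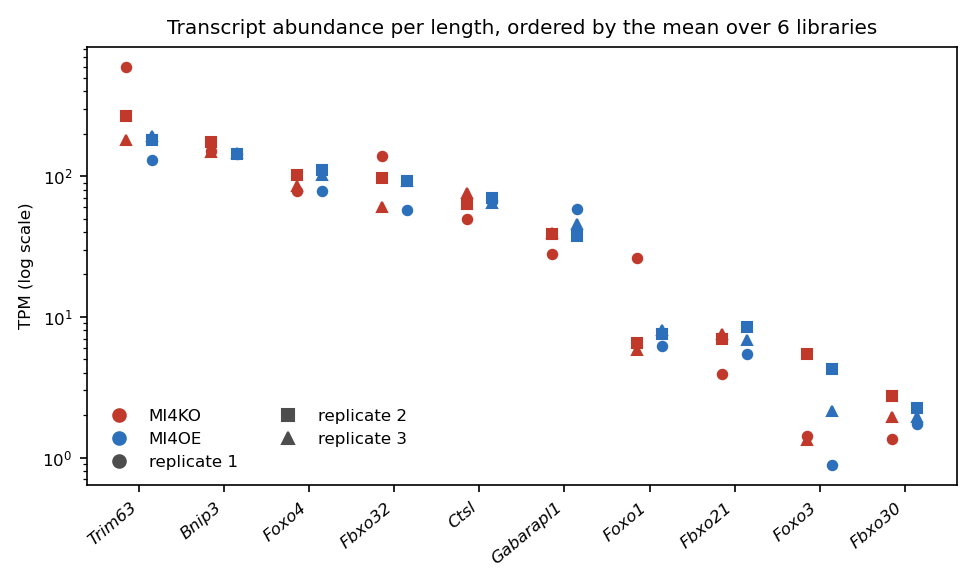
Transcript abundance of the 10 genes in TPM (vertical axis, log scale) in MI4KO (red) and MI4OE (blue) libraries, with the replicate given by the marker shape and the genes ordered by their mean. The order runs from Trim63 (mean 258) to Fbxo30 (mean 1.99), and the widest spreads are those of Trim63, Foxo1 and Foxo3.

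How unusual the library of MI4KO replicate 1 was for these genes can be read against all genes. It was the highest library by 2-fold or more in 67 of 12660 genes, or 0.529%, and Foxo1 and Trim63 were among them. Each of the other libraries was highest by that margin in 0.0553% to 2.84% of genes, the most in MI4OE replicate 1. By the ratio of this library to the next highest, Foxo1 ranked 7 and Trim63 ranked 12 among all genes tested, and Fbxo32 ranked 77. The limit of 2-fold was chosen after the values were seen, and of the members nearest to it Fbxo32 lay just outside at 1.94, whereas Trim63 lay well inside at 3.09. Without such a margin this library was the highest of the 6 in 4 of the 10 genes, against 18.2% of all genes, and the lowest in 2, against 23% of all genes.

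The size of this excess depended on the scaling. In TPM this library was 3.29-fold above the next for Foxo1, 2.23-fold for Trim63 and 1.45-fold for Fbxo32. This library also had the highest summed level of 10 skeletal muscle markers such as Ckm and Acta1. The sum was 366230 CPM, of which Myh4 gave 110580, against 203040 to 285160 CPM in the others. Of these markers 9 were highest there, but 1, Myh1, was lowest there at 566 CPM. The sum of the 10 slow-fibre markers was also lowest there, at 41.5 CPM. Relative to the sum of the skeletal muscle markers the excess was 2.66-fold for Foxo1, 2.36-fold for Trim63 and 1.45-fold for Fbxo32. Each of the 3 genes stayed highest in MI4KO replicate 1 under these scalings and under total counts and RLE factors.

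Profiles over the 6 libraries were compared by the root mean square distance between log2(CPM + 0.5) values centred on each gene's mean. Among 8203 other genes, those closest to Foxo1 were Arhgap26, the mitochondrial uncoupling protein gene Ucp3, Trim63, the glucocorticoid receptor co-chaperone gene Fkbp5 and the metal transporter gene Slc39a14, at distances from 0.254 to 0.366. Those closest to Trim63 were Arhgap26, the zinc transporter gene Slc30a2, Rai14, 2310003H01Rik and the glutamine synthetase gene Glul, at 0.224 to 0.260. Trim63 was thus the third closest gene to Foxo1 and Fbxo32 ranked 16, whereas Bnip3 ranked 875 and Foxo4 ranked 2864. Fkbp5 reached 148 CPM in MI4KO replicate 1 but 17.8 to 37.3 CPM elsewhere. Glul reached 703 CPM there, against 125 to 333 CPM.

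Foxo3 had a different set of neighbours. The closest of 8204 genes was Ago2, which encodes an Argonaute protein of the microRNA pathway, at a distance of 0.0927. Arhgap20, A630007B06Rik, the nuclear receptor gene Nr2c2 and the cholesterol exporter gene Abca1 followed at 0.135 to 0.175. MI4KO libraries held 15.6, 39.9 and 14.8 CPM of Ago2, against 9.40, 31.9 and 19.9 CPM for MI4OE. This order, with MI4KO replicate 2 highest and MI4OE replicate 1 lowest, was common and was found in 13.7% of all genes tested. These profiles over 6 libraries are descriptions and say nothing of shared control.

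**Figure D4:**
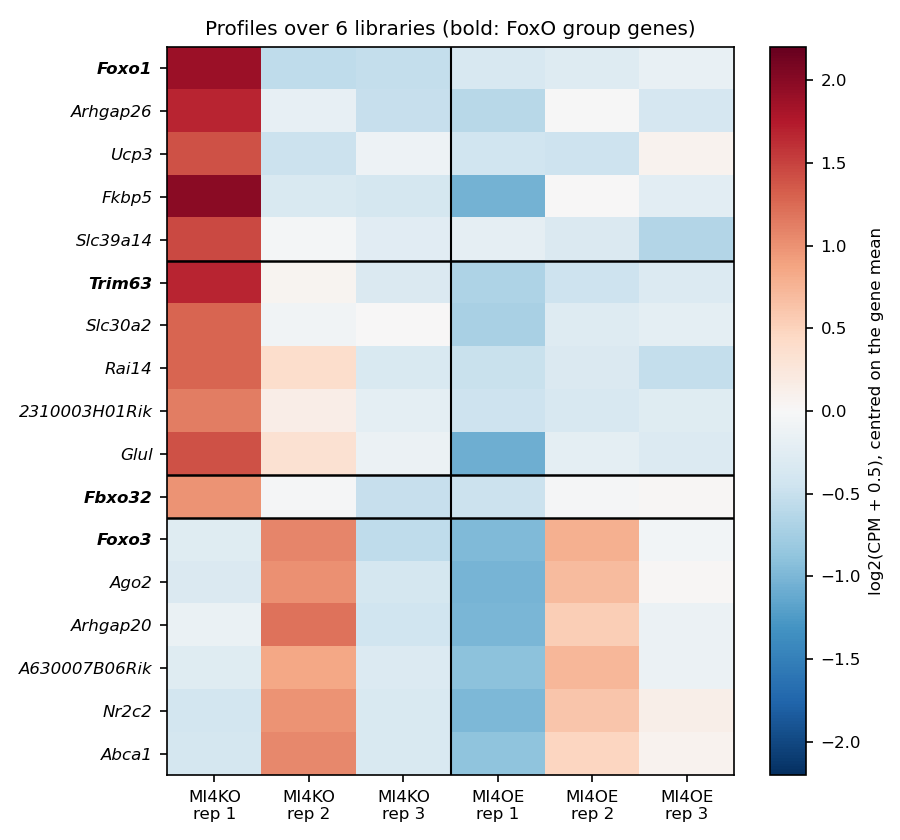
Colours give log2(CPM + 0.5) centred on each gene's mean (rows) in the 6 libraries (columns), for Foxo1, Trim63, Fbxo32 and Foxo3 in bold, with the 5 closest genes of Foxo1, Trim63 and Foxo3 below each unless already shown. Rows of the first 3 blocks are red in MI4KO replicate 1, and those of the Foxo3 block are red in replicate 2 of both genotypes and blue in MI4OE replicate 1.

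The rest of the pathway was examined with 4 lists of genes. The first held 22 tested genes that act upstream of FoxO and Foxo6, a further FoxO factor, which had a mean of 6.34 CPM in MI4KO and 8.93 CPM for MI4OE and an adjusted edgeR p of 0.846. Of these 23 genes, 0 passed the adjusted threshold in the edgeR fit, 1 had an unadjusted p under 0.05, against 7.58% of all genes, and 19 were lower in MI4OE, against 50% of all genes. The median log2 fold change was -0.19 (-0.23 over the 22 genes without Foxo6), and it was -0.049 without MI4KO replicate 2, -0.094 without MI4OE replicate 1, -0.33 without MI4KO replicate 3 and -0.31 once MI4OE replicate 2 was left out. The gene with the small p was Sgk1, a kinase related to AKT that can also phosphorylate FoxO factors. MI4KO libraries held 168, 213 and 99.3 CPM of it, against 64.8, 76.3 and 85.0 CPM for MI4OE, without overlap. Its log2 fold change was -1.09 and its adjusted p 0.496 in the quasi-likelihood fit of edgeR, 0.0449 with DESeq2 and 0.0874 by the exact test of edgeR. The log2 fold change ran from -1.35 to -0.84 when single libraries were left out. The widest ranges were those of the deacetylase gene Sirt1, the acetyltransferase gene Ep300 and the AMPK subunit gene Prkaa2, each highest in MI4KO replicate 2 and lowest in MI4OE replicate 1. In 11 of the 23 genes this was the order of the extremes, against 13.7% of all genes, as it was for Foxo3.

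Of 26 other FoxO targets, 0 passed the adjusted threshold in the edgeR fit, 2 had an unadjusted p under 0.05, against 7.58% of all genes, and the median was -0.09 with 15 lower and 11 higher in MI4OE. The median was 0.053 without MI4KO replicate 1, -0.17 without MI4KO replicate 3 and 0.026 when scaled by total counts. Ddit4, which encodes the mTOR inhibitor REDD1, held 180, 100 and 23.9 CPM in MI4KO, against 19.4, 5.31 and 11.8 CPM for MI4OE. It was highest in MI4KO replicate 1, although less alone there than Foxo1, and its log2 fold change was -3.06. The adjusted p was 0.483 in the quasi-likelihood fit of edgeR, 0.0547 with DESeq2 and 0.0123 by the exact test of edgeR. Angptl4, which encodes a secreted inhibitor of lipoprotein lipase, held 6.18, 6.06 and 13.7 CPM in MI4KO, against 1.57, 2.59 and 2.52 CPM for MI4OE. Its log2 fold change was -1.95, and its adjusted p was 0.433 in the quasi-likelihood fit of edgeR, 0.00105 with DESeq2 and 0.00234 by the exact test of edgeR. Adipocytes also express Angptl4, and the summed level of 7 adipocyte markers was 184, 346 and 966 CPM over the MI4KO libraries, against 266, 139 and 113 CPM for MI4OE. This sum was highest in the same library as Angptl4, and all 7 were lower in MI4OE. Adipoq, Plin1, Cfd, Retn, Lep and Cidec were each lowest in MI4OE replicate 1, at 0.197 to 3.39 CPM. Most of the 266 CPM in that library was thus Fabp4. The part of adipocyte RNA in the level of Angptl4 was not tested. Lpl, lipoprotein lipase itself, was between 106 and 760 CPM, highest in MI4OE replicate 1, with an adjusted p of 0.851. The first MI4KO library was the highest in 12 of these 26 genes, against 18.2% of all genes, and the lowest in 5, against 23%. It was the highest by 2-fold or more in 0 of them, against 0.529% of all genes.

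Of 23 other muscle ubiquitin ligase and proteasome genes, 0 had an adjusted p under 0.05 in the edgeR fit, against 0.0237% of all genes. An unadjusted edgeR p under 0.05 was found for 0 of them, against 7.58% of all genes. With DESeq2 0 had an adjusted p under 0.05. The median was -0.16 with 17 lower in MI4OE, against 50% of all genes. This median rested on single libraries and was -0.0040 without MI4OE replicate 1, -0.032 without MI4KO replicate 2 and -0.24 without MI4KO replicate 3. It was -0.061 when scaled by total counts and -0.085 with limma on TPM values. The widest ranges were those of Fbxo40, a muscle F-box gene, Trim55, which encodes the MuRF1 relative MuRF2, and Mylip. MI4KO libraries held 28.0, 41.6 and 25.5 CPM of Trim55, against 14.6, 38.9 and 30.3 CPM for MI4OE, and so did not share the peak of Trim63 in MI4KO replicate 1. Fbxo40 held 76.0, 185 and 95.6 CPM in MI4KO, against 40.1, 157 and 104 CPM for MI4OE, and had the extremes in the same libraries as Foxo3.

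Of 30 autophagy and lysosome genes, likewise, 0 had an adjusted p under 0.05 in the edgeR fit, against 0.0237% of all genes. An unadjusted edgeR p under 0.05 was found for 0, against 7.58% of all genes, and an adjusted DESeq2 p under 0.05 for 0. The median was -0.08 with 24 lower in MI4OE, against 50% of all genes. It was 0.0051 when scaled by total counts, -0.022 with limma on log2(TPM + 1), -0.036 on log2(TPM + 0.1) and -0.12 without MI4OE replicate 2. The widest ranges were those of the kinase genes Ulk1 and Ulk2, which start autophagosome formation, and of Atg14. Ulk1 held 81.6, 118 and 88.0 CPM in MI4KO, against 50.4, 106 and 89.2 CPM for MI4OE. The summed level of the list was between 4004 and 4596 CPM in all 6 libraries.

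Genes of the glucocorticoid response were set beside the members. This list was drawn up after high Foxo1 had been seen in MI4KO replicate 1, so it is no independent evidence, and Sgk1 belongs to it as well as to the upstream list. Of 13 tested genes, all 13 were lower in MI4OE and the median of their log2 fold changes was -0.79. Of these, 0 passed the adjusted threshold in the edgeR fit, and 5 had an unadjusted p under 0.05, against 7.58% of all genes. DESeq2 called 1, Sgk1, among the 11 for which it gave an adjusted p, and gave none for Mt1 and Mt2. The summed level of all 14 listed genes, the untested Lcn2 included, was 1534, 1036 and 683 CPM over the MI4KO libraries, against 616, 546 and 628 CPM for MI4OE. The first MI4KO library was highest by 2-fold or more in 3 of the tested genes, Fkbp5 and the metallothionein genes Mt1 and Mt2, against 0.529% of all genes. Mt2 reached 123 CPM there, against 2.69 to 6.89 CPM, and Mt1 reached 163 CPM, against 5.03 to 26.4 CPM. Cebpd, a transcription factor gene, held 68.8, 41.8 and 22.9 CPM in MI4KO, against 24.3, 9.96 and 15.1 CPM for MI4OE. The median of the list was -0.43 without MI4KO replicate 1, and the log2 fold change of Mt1 was then 0.17. Their part in the levels of Foxo1, Trim63 and Fbxo32 was not tested.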

How the data were processed

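RNA-seq libraries of gastrocnemius were prepared with a stranded mRNA kit. The authors mapped single reads with Bowtie2 2.1.0 to a UCSC transcript set and estimated expression with RSEM 1.2.15, as their notes and the paper's methods state. The genome build was not given in the sources used here. The authors deposited expected counts, which RSEM estimated for genes and transcripts and did not normalize. The deposited TPM values are adjusted by RSEM for length. The deposited transcript shares are the percent of a gene's abundance given to each transcript. The authors' tables of fold changes, p-values and false discovery rates were not used. Counts differed for 0 genes between the series table and the files of single libraries.

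After rounding, counts were analysed in edgeR 4.0.16 (R 4.3.3, filterByExpr at a minimum count of 10 and total of 15, TMM factors, quasi-likelihood test, Benjamini-Hochberg adjustment over 12660 genes). Standard errors are the log2 fold change over the square root of F. A floor of 3 counts was 0.101 to 0.148 CPM, for counting error only. The test was checked on simulated counts. Groups came from the genotype label, and replicate numbers follow deposition order. Alternatives were RLE factors, total counts, a mean CPM of at least 1, no filter, DESeq2 1.42.0, edgeR's exact test, bias-adjusted deviances, limma 3.58.1 on log2(TPM + 1) and log2(TPM + 0.1), and leaving out each library.

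The named genes are the 10 members, Irf4, in each list up to 4 genes with the smallest unadjusted p under 0.05 and up to 3 with the largest ratio of the highest to the lowest library, and the 5 closest profiles (mean CPM of at least 5) to each of the 3 members with the largest such ratio. Glul, Fkbp5 and Ago2 were detailed after their values were seen. The 2-fold margin of MI4KO replicate 1 and the scalings of its excess were added after the data were seen. The members and lists were chosen with earlier results of these data known.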

Additional observations from a re-analysis of the deposited data

How the results depend on the processing

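No paired analysis was possible because the labels carry no replicate number that could link libraries of the 2 genotypes. None of the 10 members passed an adjusted p of 0.05 under any of the 15 alternatives, and their log2 fold changes kept their sign in 138 of 150 of these refits. Genes past an adjusted p of 0.05 numbered 3, but DESeq2 gave 111 and the exact test of edgeR gave 108, and 1 to 4 when single libraries were left out, with 1 without MI4KO replicate 1. Genes past 1.5-fold and an unadjusted p of 0.05 numbered 841, against 468 with limma on log2(TPM + 1), and 590 to 1314 when single libraries were left out, the highest without MI4OE replicate 2. The 1 member past this criterion, Trim63, was no longer called (0 genes) by limma at either pseudocount, where its log2 fold change was -0.89 at both and the unadjusted p 0.0584 and 0.0571, and the count was 0 to 2 when single libraries were left out. Without MI4KO replicate 1 the log2 fold change of Trim63 was -0.36 and the count 0. Without MI4OE replicate 1, 2 or 3 the count was also 0, but the log2 fold change stayed at -1.14, -1.23 and -1.33. It was 1 without MI4KO replicate 2 and 2 (Foxo1 and Trim63) without MI4KO replicate 3.

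Over the fits that left out single libraries the log2 fold change ran from -1.44 to 0.28 for Foxo1, -0.80 to 0.57 for Foxo3, -0.72 to 0.095 for Fbxo32, -0.19 to 0.082 for Fbxo30, -0.032 to 0.30 for Fbxo21 and -0.089 to 0.16 for Ctsl. It ran from -0.53 to 0.24 for Ep300, -0.22 to 1.70 for Lpl, -0.72 to 0.22 for Fbxo40, -0.50 to 0.13 for Trim55, -0.29 to 0.34 for Mylip, -0.46 to 0.027 for Ulk1, -0.29 to 0.25 for Atg14, -3.47 to 0.17 for Mt1 and -0.55 to 0.18 for Hdac4. Fbxo30 turned to 0.016 with total counts, 0.00074 with limma at a TPM pseudocount of 1 and 0.0149 at 0.1, and Atg14 to 0.039 with total counts, where the median of all genes was 0.0896. At 1.67 to 8.40 CPM, Foxo3 was the member nearest to the limit of depth. The cause of these changes was not tested.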

Other observations

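Genes that respond to loss of the nerve supply were examined as a further group. Of 8 tested genes, 5 were higher and 3 lower in MI4OE. Their median log2 fold change was 0.16, and it was -0.027 without MI4OE replicate 1 and 0.0083 among genes with a mean CPM of at least 1. It was 0.256 both when scaled by total counts and without MI4KO replicate 3, and 0.249 with limma on log2(TPM + 0.1). By edgeR and by DESeq2 0 passed the adjusted threshold, and with edgeR 2 had an unadjusted p under 0.05, against 7.58% of all genes. Chrna1, the alpha subunit gene of the muscle acetylcholine receptor, held 13.9, 12.0 and 7.59 CPM in MI4KO, against 17.4, 22.7 and 17.4 CPM for MI4OE, without overlap. Its log2 fold change was 0.78 and its adjusted edgeR p 0.546. Sln, which encodes the calcium pump regulator sarcolipin, had only 4, 8 and 19 counts in MI4KO and 45, 24 and 15 in MI4OE. These are 0.164, 0.317 and 0.638 CPM in MI4KO, against 2.21, 0.839 and 0.662 CPM for MI4OE. Its log2 fold change was 1.68 with an adjusted edgeR p of 0.612. Sln was not among the 7 genes of the list tested at a mean CPM of at least 1. The log2 fold change of Sln was 0.98 without MI4OE replicate 1, with an unadjusted edgeR p of 0.154. Leaving out MI4KO replicate 1 or 2 gave an unadjusted edgeR p of 0.0988 or 0.0912. Musk, the receptor kinase gene of the neuromuscular junction, ran from 6.15 CPM in MI4OE replicate 1 to 29.9 CPM in MI4KO replicate 1, and Hdac4 from 6.10 to 18.7 CPM.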
